A study of Homo sapiens with 16 samples.

Results

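The MiT/TFE family of transcription factors comprises MITF, TFEB, TFE3 and TFEC, and the reads of these 4 genes were followed through 16 human glioblastoma libraries. The members were taken by gene symbol from the count tables, in which they are 4 of 20314 genes for U251 cells and 4 of 20626 genes for U343 cells. No measured value enters this rule, but the members were chosen with earlier results of these data known. None of them overlaps another gene of the tables. U251 and U343 are established human glioblastoma cell lines. Cells of each line received either a control mimic or a mimic of miR-137, both at 25 nM, and RNA was collected 48 h later. RNASeq libraries hold total RNA, and RIPSeq libraries hold RNA precipitated with antibodies to the poly(A)-binding protein (PABP), which coats the tails of mRNAs and accompanies those being translated. There were 2 libraries for each combination of line, assay and transfection, and 4 libraries, 2 control and 2 miR137, are called an experiment here.

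All libraries were depleted of ribosomal RNA. The cDNA of U251 was primed with random hexamers and that of U343 was made with the TotalScript kit, before Nextera tagging of both, so that line and cDNA chemistry cannot be told apart. Reads counted on genes ranged from 10156675 to 18224061 in U251 RNASeq, from 22359794 to 30731476 in U251 RIPSeq and from 37736206 to 45134766 in the U343 libraries. The U251 RIPSeq controls stood apart: the median absolute log2 ratio between their 2 libraries was 0.65 over genes at 1 CPM (read counts scaled to a common library size) or more in both, against 0.06 to 0.23 between the libraries of the other groups. By the mean chi-square per gene, another measure of this spread, the U343 RNASeq miR137 libraries (144.5) stood near them (180.5). The remaining groups lay at 2.17 to 18.0. Of 10 astroglial markers, 8 reached 1 CPM in every control group, with summed levels of 11300 to 16400 CPM. In the controls 12 melanocyte markers summed to 5.94 to 24.1 CPM and 9 macrophage markers to 0.734 to 6.43 CPM. In the U251 RNASeq controls the astroglial marker AQP4, the melanocyte marker OCA2 and the macrophage markers TYROBP, CD163, C1QA, SPI1 and FCGR3A had 0 reads. The labels do not say whether the 2 libraries of a group came from separate cultures, so p-values measure only the spread between these libraries.

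MiT/TFE proteins are basic helix-loop-helix leucine zipper factors that bind DNA as dimers, with themselves or with each other, at the E-box CACGTG and related sites. MITF is best known as the central regulator of melanocytes and is a known target of miR-137. TFEB and TFE3 switch on genes of lysosomes and autophagy, many of which carry the CLEAR element in their promoters, and TFEC is known mainly from macrophages. In fed cells the kinase complex mTORC1, with the Rag GTPases at the lysosomal surface, phosphorylates TFEB and TFE3 and keeps them in the cytoplasm. Their mRNA level alone therefore does not show how much protein is in the nucleus, and no protein was measured here.

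The treatment was a mimic of miR-137, and the sources do not give the sequence of the mimic itself. The mature human miRNA is shown with its seed, bases 2 to 8, in capitals. It is encoded on the minus strand of chromosome 1 (GRCh38.p14, chr1:98046091-98046113, RefSeq). Among 2545 mature human miRNA entries, miR-137-3p was the 1 name with this seed, and the perfect target of the seed in an mRNA reads AGCAAUA. The MITF mRNA was not searched for this target here.
hsa-miR-137-3p: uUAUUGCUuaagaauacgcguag

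Promoter windows show the element through which TFEB and TFE3 are known to act. Of the 16 lysosomal list genes with a RefSeq window (250 bases before to 50 after the start), MCOLN1, a lysosomal calcium channel, and GAA, the lysosomal alpha-glucosidase, held the full palindromic CLEAR element, whose core is the E-box, and 0.421% of 27305 genes with a window held it. They were picked by sequence. The element is in capitals below, in 30-base stretches from GRCh38.p14 on the plus strand, at chr19:7522598-7522627 for MCOLN1 and at chr17:80101493-80101522 and chr17:80101538-80101567 for GAA. MITF itself held the cAMP response element TGACGTCA, the site through which melanocortin signals are known to raise MITF in pigment cells, before 1 of its 3 annotated starts (chr3:69936429-69936458), as did 2.25% of genes. These are matches of letters in a window on both strands and not measured binding sites.
MCOLN1: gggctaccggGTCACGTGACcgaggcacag
GAA, first site: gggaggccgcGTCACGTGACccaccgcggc
GAA, second site: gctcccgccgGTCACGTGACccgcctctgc
MITF: gaaaaaaagcaTGACGTCAagccaggggga

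MITF (hg18, chr3:69871323-70100177, plus strand) fell most steeply in U343. In U343 RNASeq the controls had 832 and 746 MITF reads and the miR137 libraries 105 and 80. In U343 RIPSeq the controls had 595 and 455 reads and the miR137 libraries 32 and 46. Every control library was far above every miR137 library in both assays. The mean level fell from 18.9 ± 1.18 to 2.19 ± 0.429 CPM in total RNA and from 12.2 ± 1.42 to 0.997 ± 0.251 CPM in PABP-bound RNA (SD, n = 2). By edgeR's quasi-likelihood test, with Benjamini-Hochberg adjustment over all genes tested, the log2 fold changes were -3.10 (SE 0.20, adjusted p = 0.00647) and -3.61 (SE 0.20, adjusted p = 8.19e-06). MITF ranked number 4 from the lowest fold change of 15088 genes in U343 RNASeq and number 5 of 14866 in U343 RIPSeq. The test called 20% of all genes in U343 RNASeq, 11.7% as lower, and 56.3% in U343 RIPSeq, 27.8% as lower. In U343 RNASeq the call needed both controls: without either one the fold change was -3.16 or -3.04, with adjusted p of 0.151 or 0.17, and 0 genes were called, with 1 residual degree of freedom.

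In U251 the fall of MITF was smaller in total RNA and did not pass the test in PABP-bound RNA. The U251 RNASeq controls had 349 and 386 MITF reads and the miR137 libraries 144 and 136, from smaller libraries. Levels did not overlap, at 22.3 and 23.6 CPM against 13.0 and 12.1 CPM. The log2 fold change was -0.87 (SE 0.15, adjusted p = 0.000298), in an experiment where 57.7% of all genes were called, 29% as lower. In a joint fit of the 8 U251 libraries the fold change was nearly the same, -0.86, but its adjusted p was 0.0682. In U251 RIPSeq the controls had 112 and 259 reads, 4.8 and 9.27 CPM, and the miR137 libraries, with 173 and 178 reads, 6.62 and 6.55 CPM, lay between them. The log2 fold change there was -0.10 (SE 0.38, adjusted p = 0.913), with 1.21% of all genes called. Its direction turned on which control was kept: -0.50 without control replicate 1 and 0.54 without control replicate 2, with adjusted p of 0.000124 and 0.000944, in fits with 1 residual degree of freedom that called 9741 and 11670 genes. In bulk RNA, fewer cells expressing a gene and less of its RNA per cell cannot be told apart.

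**Figure D1:**
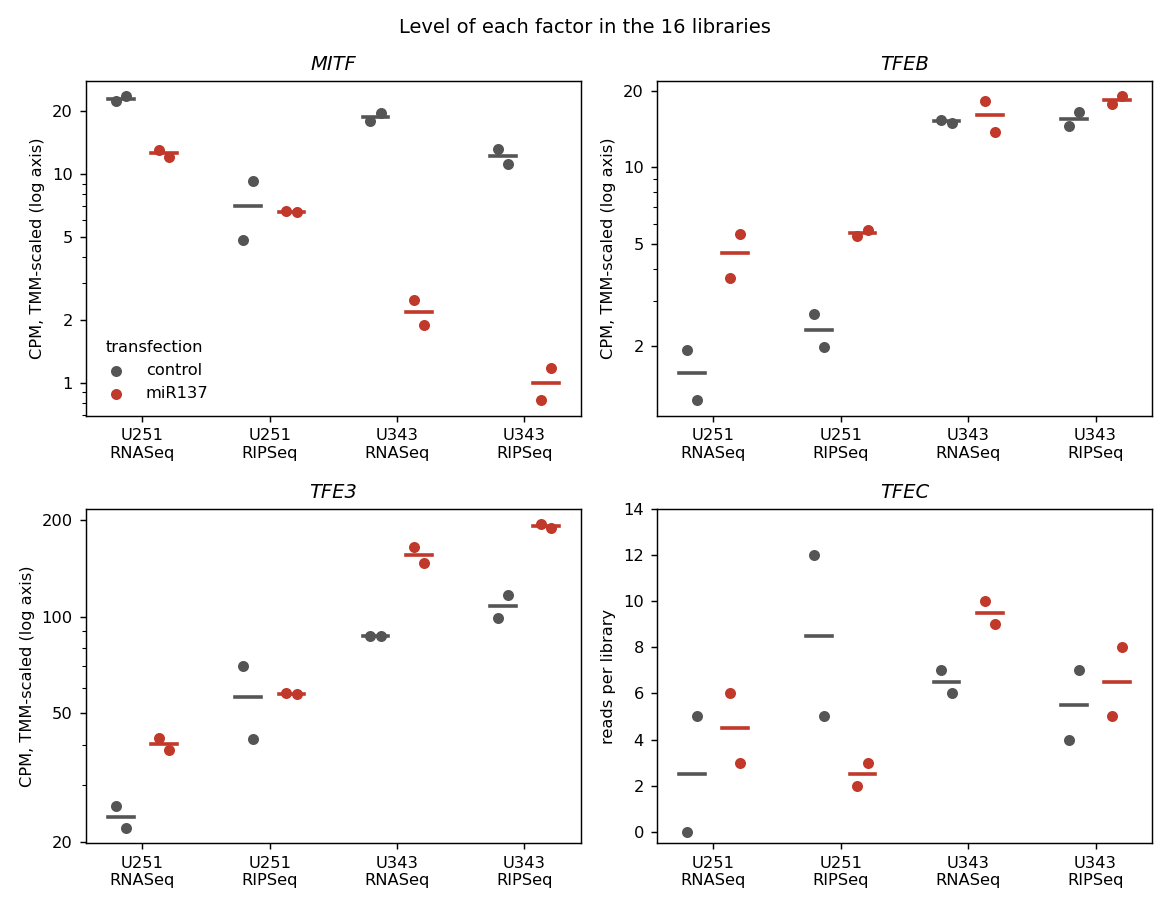
Levels of MITF, TFEB and TFE3 in CPM (log axis) and of TFEC in reads (linear axis), for each library of the 4 experiments on the x axis, with control in gray, miR137 in red and bars at the mean of 2 libraries. MITF was at 18.9 CPM in the U343 RNASeq controls and at 2.19 CPM with miR137, while TFE3 was higher with miR137 in 3 of the 4 experiments without overlap.

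The difference between the lines was itself tested. The log2 fold change of MITF in U343 minus that in U251 was -2.24 in RNASeq (SE 0.25, adjusted p = 0.00123) and -3.46 in RIPSeq (SE 0.47, adjusted p = 0.0177), with 25.2% and 3.28% of all genes called. In RIPSeq this call was lost without any 1 of 6 libraries (adjusted p of 0.105 to 0.191, log2 differences of -3.74 to -3.23), and it was kept without either of the U251 controls. In control RNASeq the level of MITF in U343 was 0.853 times that in U251, a log2 difference of -0.23 (SE 0.12) that did not pass the test (adjusted p = 0.0924), in a comparison where 84.8% of genes were called. MITF has 13 curated RefSeq transcripts in GRCh38.p14, which the tables merge into 1 count, so the forms of MITF in each line were not analysed here.

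The criterion of the study was computed as well: Fisher's exact test (two-sided) of the gene's reads against all other reads in each of the 4 control and miR137 library pairs, which asks in all 4 pairs for an odds ratio above 2 together with an adjusted p below 0.001. MITF met it in U343 RNASeq, with odds ratios of 7.3 to 10.8 and the largest adjusted p at 1.94e-127, and in U343 RIPSeq, with odds ratios of 9.14 to 16.7 and the largest adjusted p at 5.14e-78. This criterion called 2.88% and 3.4% of all genes as lower in those experiments. It kept MITF under all 8 other settings in both. In U251 RNASeq the odds ratios of MITF were 1.47 to 1.58, or 1.72 to 1.96 with scaled library totals, below the limit of 2 in 4 of 4 pairs, and in U251 RIPSeq they were 0.732 to 1.26. It called 2.21% and 1.49% of genes as lower there.

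TFE3 (hg18, chrX:48771186-48787934, minus strand), which shares the control of lysosomal genes with TFEB, rose with the mimic in 3 of the 4 experiments. In U343 RNASeq its reads went from 4018 and 3292 in the controls to 6905 and 6240, and in U343 RIPSeq from 4456 and 4775 to 7584 and 7408. In U251 RNASeq they went from 403 and 359 to 465 and 435, and the smaller miR137 libraries make this 23.9 ± 2.68 against 40.3 ± 2.37 CPM (SD, n = 2). No control library reached the level of a miR137 library in these 3 experiments. The log2 fold changes were close to each other, 0.84 (SE 0.10, adjusted p = 0.0131) in U343 RNASeq, 0.83 (SE 0.10, adjusted p = 0.000387) in U343 RIPSeq and 0.76 (SE 0.14, adjusted p = 0.000546) in U251 RNASeq. The test called 8.31%, 28.5% and 28.7% of all genes as higher in these experiments. The difference of TFE3 between the lines in RNASeq was 0.07 on the log2 scale (SE 0.17, adjusted p = 0.794).

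The criterion of the study keeps falls only, so it was mirrored here for rises, again over all 4 pairs. In either direction it called TFE3 in 0 of the 4 experiments. In U251 RNASeq its odds ratios, control over miR137, were 0.435 to 0.557, or 0.523 to 0.667 with scaled library totals, and 2 of 4 pairs passed as higher. In U343 RNASeq they were 0.523 to 0.626 and in U343 RIPSeq 0.504 to 0.623, and 0 of 4 pairs passed in each. With a limit of 1.5 in place of 2, TFE3 was called higher in these 3 experiments. At the limit of 2 the criterion called 6.14%, 1.51% and 4.83% of genes as higher in them. The U343 RNASeq call by edgeR was lost without either control, with adjusted p of 0.183 and 0.199, and the U251 RNASeq call in the joint fit of 8 libraries, with an adjusted p of 0.0864. In U251 RIPSeq TFE3 had 1642 and 1164 reads in the controls and 1509 and 1559 with miR137. At 70.4 and 41.7 CPM the controls lay on both sides of the miR137 libraries, at 57.8 and 57.4 CPM. Its log2 fold change there was 0.04 (SE 0.34, adjusted p = 0.966). It was 0.46 without control replicate 1 (adjusted p = 8.38e-12) and -0.20 without control replicate 2 (adjusted p = 0.00184), in the same fits that called 9741 and 11670 genes, so both the call and its direction turned on which control was kept.

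TFEB (hg18, chr6:41759694-41810776, minus strand), the best studied regulator of lysosome formation, was scarce in U251 and rose there. In U251 RNASeq it had 30 and 20 reads in the controls and 41 and 62 with miR137, that is 1.57 ± 0.49 against 4.60 ± 1.27 CPM (SD, n = 2), without overlap. The log2 fold change was 1.55 (SE 0.31, adjusted p = 0.000789). In U251 RIPSeq TFEB had 62 and 55 reads in the controls and 140 and 155 with miR137, again without overlap, and a log2 fold change of 1.26 (SE 0.28) with an adjusted p of 0.121, which the joint fit of 8 libraries brought to 0.0301. By the pairwise criterion mirrored for rises, 3 of 4 pairs passed in each of the U251 experiments. It called 6.14% and 3.47% of genes as higher in them.

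In U343 TFEB had more reads and passed the test in neither assay. Its reads in U343 RNASeq were 710 and 564 in the controls and 766 and 584 with miR137, and the groups overlapped. In U343 RIPSeq they were 654 and 669 against 692 and 745, with levels of 14.5 and 16.5 CPM in the controls just below the 17.7 and 19.0 CPM with miR137. The log2 fold changes were 0.08 (SE 0.17, adjusted p = 0.782) and 0.25 (SE 0.11, adjusted p = 0.0833). With the replicate number as a block, the latter was 0.25 with an adjusted p of 0.0224. The difference of TFEB between the lines was -1.48 in RNASeq (SE 0.39, adjusted p = 0.0256) and -0.96 in RIPSeq (SE 0.31, adjusted p = 0.14). The former lost its call without U251 control replicate 2, U251 miR137 replicate 2 or either U343 control (adjusted p of 0.0735 to 0.129). At baseline, control U343 had 10-fold more TFEB than control U251 in RNASeq, a log2 difference of 3.32 (SE 0.21, adjusted p = 7.18e-07), and 3.79-fold more TFE3, a log2 difference of 1.92 (SE 0.11, adjusted p = 2.94e-07). As 84.8% of genes differed in that comparison, which also sets 1 library chemistry against the other, the calls do not set these genes apart.

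**Figure D2:**
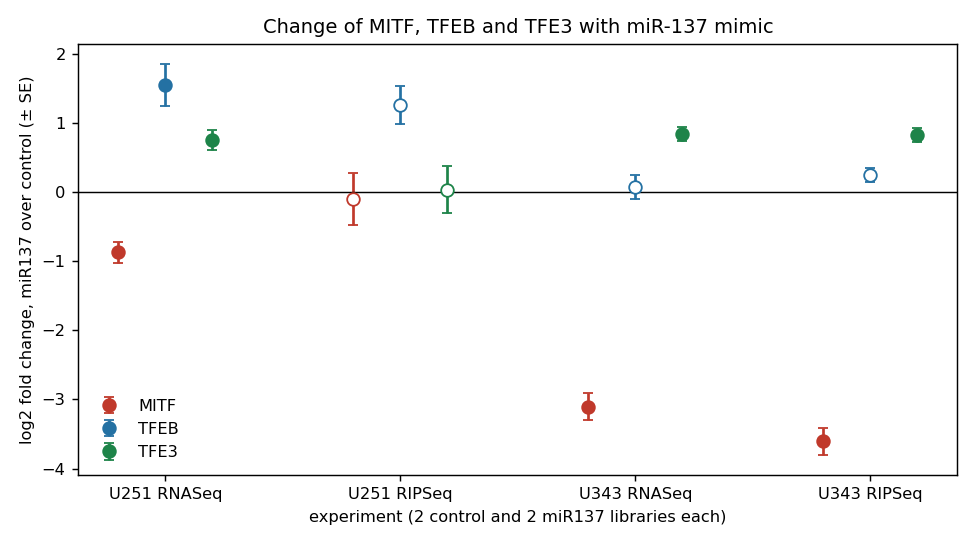
Log2 fold change of MITF (red), TFEB (blue) and TFE3 (green), miR137 over control, with its standard error, in each of the 4 experiments; filled points passed an adjusted p of 0.05 and open points did not. MITF lay at -3.10 and -3.61 in U343 and at -0.87 and -0.10 in U251, while TFE3 lay between 0.76 and 0.84 in all but U251 RIPSeq.

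TFEC (hg18, chr7:115362438-115458034, minus strand) was barely detected. It had from 0 to 12 reads per library and never passed the filter on low counts in the experiments. Summed over 2 libraries it had 5 reads in the controls and 9 with miR137 in U251 RNASeq, 17 and 5 in U251 RIPSeq, 13 and 19 in U343 RNASeq, and 11 and 13 in U343 RIPSeq. The ratio of miR137 to control, with its exact 95% interval for counting error only, was 2.58 (0.776 to 9.79), 0.283 (0.0816 to 0.798), 1.45 (0.681 to 3.2) and 1.3 (0.536 to 3.2). Of the 17 control reads in U251 RIPSeq, 12 came from replicate 1. In the other 3 experiments the interval held 1, and a change was not detectable at this depth. PCR copies were not marked, so reads need not be independent molecules.

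Of the 3 members that could be tested, 1 fell and 2 rose in U251 RNASeq, and 1 fell and 1 rose in each U343 experiment. Of all genes 57.7%, 20% and 56.3% were called in U251 RNASeq, U343 RNASeq and U343 RIPSeq. In U251 RIPSeq 0 of 3 passed by edgeR, 0 of 3 by DESeq2, and 1 of 3 (TFEB) had an unadjusted p under 0.05. Within a library, the balance between MITF and TFE3 is free of library size. Its absolute size depends on transcript lengths, which were not used here, so it is compared only between libraries. In U343 RNASeq MITF had 20.7 and 22.7 reads per 100 TFE3 reads in the controls and 1.52 and 1.28 with miR137. In U343 RIPSeq the values were 13.4 and 9.53 against 0.422 and 0.621, and in U251 RNASeq 86.6 and 107.5 against 31.0 and 31.3. All miR137 libraries were below all controls in these 3 experiments. In U251 RIPSeq the controls, at 6.82 and 22.3, again enclosed the miR137 libraries, at 11.5 and 11.4.

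**Figure D3:**
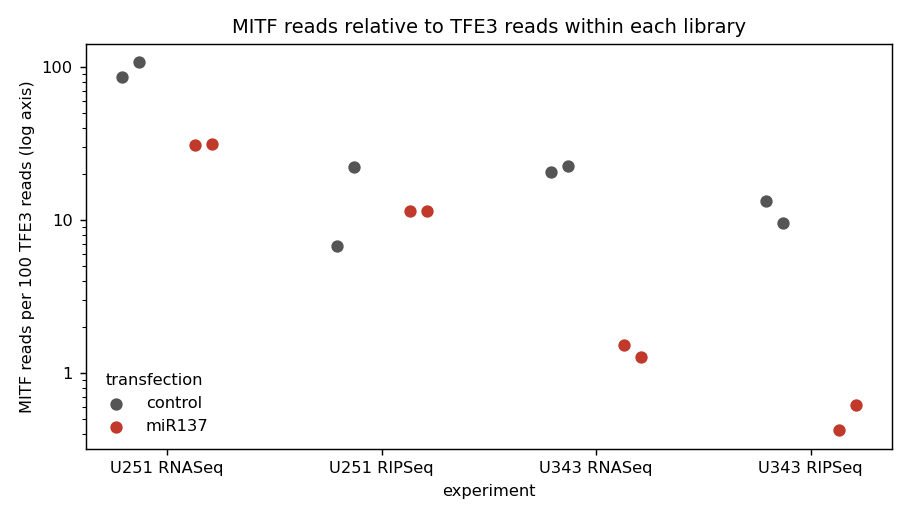
MITF reads per 100 TFE3 reads in each of the 16 libraries (log axis), by experiment on the x axis, with control in gray and miR137 in red. Points of the 2 transfections do not overlap except in U251 RIPSeq, where the controls at 6.82 and 22.3 lie around the miR137 libraries.

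**Figure D4:**
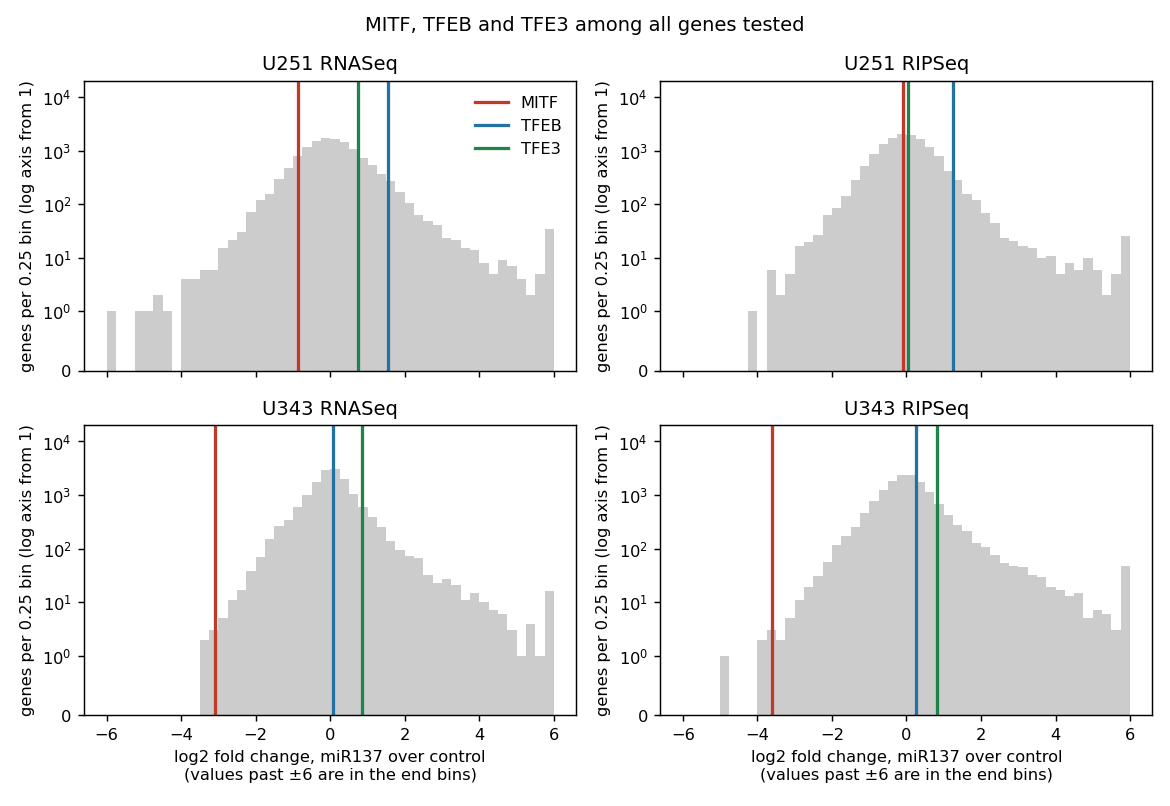
Number of genes tested (log axis from 1) by log2 fold change, miR137 over control, in bins of 0.25, with vertical lines at MITF (red), TFEB (blue) and TFE3 (green), 1 panel per experiment. In both U343 panels MITF lies in the far lower tail, at rank 4 of 15088 and rank 5 of 14866, and in U251 RNASeq it lies inside the bulk, at rank 1600 of 13052.

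Whether the effect of the mimic differed between total and PABP-bound RNA was tested within each line. The fold change in RIPSeq minus that in RNASeq was -0.50 for MITF (SE 0.29, adjusted p = 0.42), 0.17 for TFEB (SE 0.20, adjusted p = 0.699) and -0.01 for TFE3 (SE 0.15, adjusted p = 0.982) in U343. In U251 it was 0.73 for MITF (SE 0.40, adjusted p = 0.345), -0.34 for TFEB (SE 0.45, adjusted p = 0.672) and -0.77 for TFE3 (SE 0.39, adjusted p = 0.314). By edgeR and by DESeq2, 0 of these 6 passed and 0 of 6 had an unadjusted p under 0.05 in edgeR. Of all genes 0.00649% were called in U343 and 0.134% in U251. Without U251 RIPSeq control replicate 2, MITF (1.36, adjusted p = 0.000135) and TFE3 (-1.02, adjusted p = 0.000296) passed in U251, in a fit that called 8869 genes.

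In cells given the control mimic, MITF was lower and TFE3 higher in PABP-bound than in total RNA of U343. These are levels relative to the other genes of each library and not amounts bound. The log2 difference, PABP-bound over total, was -0.52 for MITF (SE 0.11, adjusted p = 0.00786), 0.14 for TFEB (SE 0.10, adjusted p = 0.298) and 0.42 for TFE3 (SE 0.10, adjusted p = 0.00861), and 48.6% of genes were called. Without RNASeq control replicate 2 both calls were just lost, with adjusted p of 0.0553 for MITF and 0.0505 for TFE3. In U251 the differences were -1.56 for MITF (SE 0.38, adjusted p = 0.0451), 0.71 for TFEB (SE 0.44, adjusted p = 0.276) and 1.39 for TFE3 (SE 0.39, adjusted p = 0.0603), with 14% of genes called. The U251 call of MITF was lost without either RNASeq control (adjusted p of 0.257 and 0.316) and with no filter on low counts (0.138). Without RIPSeq control replicate 1 and 2 in turn it was -1.19 and -2.15.

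Targets of MITF known outside pigment cells were counted next. Of 17 such targets, 12 were tested in U251 RNASeq, of which 4 fell and 2 rose, with a median log2 fold change of -0.25 against 0.02 over all genes, of which 29% fell and 28.7% rose. HIF1A, the oxygen-regulated factor, fell by 1.00 (SE 0.16, adjusted p = 0.000162) on the log2 scale and TBX2, a T-box repressor, rose by 1.71 (SE 0.23, adjusted p = 2.85e-05). In U343 RNASeq 5 of 14 fell and 0 rose, median -0.27 against 0.02, where 11.7% of all genes fell and 8.31% rose. In U343 RIPSeq 7 of 14 fell and 3 rose, median -0.35 against 0.0049, where 27.8% of all genes fell and 28.5% rose. In U251 RIPSeq 0 of 14 passed, median -0.15. In U343 TBX2 fell, by 1.23 in RNASeq (SE 0.17, adjusted p = 0.0165), and the receptor tyrosine kinase MET fell by 1.44 in RIPSeq (SE 0.16, adjusted p = 0.000241). ACP5, the acid phosphatase of osteoclasts, rose by 1.83 in U343 RIPSeq (SE 0.27, adjusted p = 0.000833) from 42 and 29 reads to 137 and 93. The difference of TBX2 between the lines in RNASeq was -2.95 (SE 0.28, adjusted p = 0.000732), from a control level of 39 and 36 reads in U251. That of HIF1A was 0.87 in RNASeq (SE 0.18, adjusted p = 0.0116) and -0.03 in RIPSeq (SE 0.67, adjusted p = 0.992).

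Most pigment genes had few reads. Of 12, 4 passed the filter on low counts in U251 RNASeq, 5 in U251 RIPSeq and 6 in each U343 experiment. MC1R, the melanocortin receptor and an upstream activator of MITF, was the most abundant in U343, with means of 8.86 to 17.2 CPM, and SLC24A5, a melanosomal ion exchanger, had 205 and 242 reads in the U343 RNASeq controls. In U251 RNASeq 2 of 4 rose and 0 fell, median 0.76, where 28.7% of all genes rose. In U251 RIPSeq 0 of 5 passed and the median was of the opposite sign, -0.57. In U343 RNASeq 0 of 6 passed by edgeR, with 3 of 6 at an unadjusted p under 0.05, as had 5551 of all 15088 genes. In U343 RIPSeq 2 of 6 rose and 2 fell, median -0.14, where 28.5% of all genes rose and 27.8% fell. In every fit without 1 library, fewer of these pigment genes were called lower there. MC1R rose by 1.28 in U251 RNASeq (SE 0.27, adjusted p = 0.00128) and by 0.96 in U343 RIPSeq (SE 0.12, adjusted p = 0.000365). TYRP1, a melanosomal enzyme, fell by 1.02 in U343 RIPSeq (SE 0.26, adjusted p = 0.0124), from 42 and 47 reads to 19 and 21.

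Lysosome and autophagy genes of the CLEAR network, the known targets of TFEB and TFE3, moved in both directions. In U251 RNASeq 13 of 29 tested rose and 5 fell, with a median log2 fold change of 0.38, where 28.7% of all genes rose and 29% fell. In U251 RIPSeq the median had the opposite sign, -0.48, with 19 of 29 below 0, 1 called lower and 0 higher, and 7 lower and 4 higher at an unadjusted p under 0.05. In U343 RNASeq 5 of 28 rose and 3 fell, median 0.04, where 8.31% of all genes rose and 11.7% fell. In U343 RIPSeq 7 of 28 rose and 10 fell, median -0.06, where 28.5% of all genes rose and 27.8% fell. The cargo receptor of autophagy SQSTM1 had the largest rise of the list in U343, at 1.29 in RNASeq (SE 0.16, adjusted p = 0.0133) and 1.59 in RIPSeq (SE 0.16, adjusted p = 0.000114). Its level went from 1800 ± 169 to 4390 ± 827 CPM and from 1560 ± 42.4 to 4700 ± 563 CPM (SD, n = 2). Its gene overlaps MGAT4B and C5orf45 over 565 and 812 bases in the table, where reads may be shared. In U251 RNASeq SQSTM1 had a log2 fold change of -0.20 (SE 0.15, adjusted p = 0.264), and the difference between the lines was 1.48 (SE 0.21, adjusted p = 0.00271).

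SGSH differed between the lines in RNASeq as well, but not in RIPSeq. The heparan sulfatase SGSH rose by 3.88 in U251 RNASeq (SE 0.29, adjusted p = 1.93e-07), from 17 and 9 reads to 118 and 153. The difference between the lines was -3.29 in RNASeq (SE 0.41, adjusted p = 0.00178). In RIPSeq it had the opposite sign, 1.26 (SE 0.53, adjusted p = 0.233). In U251 RIPSeq SGSH had 265 and 132 reads in the controls and 194 and 210 with miR137, a log2 fold change of -0.08 (SE 0.47, adjusted p = 0.943). The difference between the U251 assays, RIPSeq minus RNASeq, was -4.02 (SE 0.67, adjusted p = 0.0653). In U343 SGSH had log2 fold changes of 0.60 in RNASeq (SE 0.20, adjusted p = 0.103) and 1.12 in RIPSeq (SE 0.10, adjusted p = 7.99e-05). The cysteine protease CTSF fell in both U251 experiments, by 2.87 in RNASeq (SE 0.43, adjusted p = 7.72e-05) and by 3.53 in RIPSeq (SE 0.37, adjusted p = 0.0381), the latter from 119 and 103 reads to 9 and 11. It had 0 to 3 reads in every U343 library. GLA, the alpha-galactosidase, fell by 0.89 in U343 RNASeq (SE 0.19, adjusted p = 0.0411). Of the genes whose promoters are printed above, MCOLN1 rose by 0.73 in U251 RNASeq (SE 0.24, adjusted p = 0.0207). Its log2 fold changes elsewhere were -0.48 in U251 RIPSeq (adjusted p = 0.625), -0.23 in U343 RNASeq (adjusted p = 0.346) and 0.07 in U343 RIPSeq (adjusted p = 0.585). GAA had log2 fold changes of 0.57 in U251 RNASeq (SE 0.24, adjusted p = 0.0555) and -1.81 in U251 RIPSeq (SE 0.35, adjusted p = 0.0992), the latter from 635 and 459 reads to 154 and 179, without overlap. The difference of GAA between these assays was -2.43 (SE 0.45, adjusted p = 0.0798). In U343 its log2 fold changes were -0.21 in RNASeq (adjusted p = 0.197) and -0.36 in RIPSeq (adjusted p = 0.0139).

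**Figure D5:**
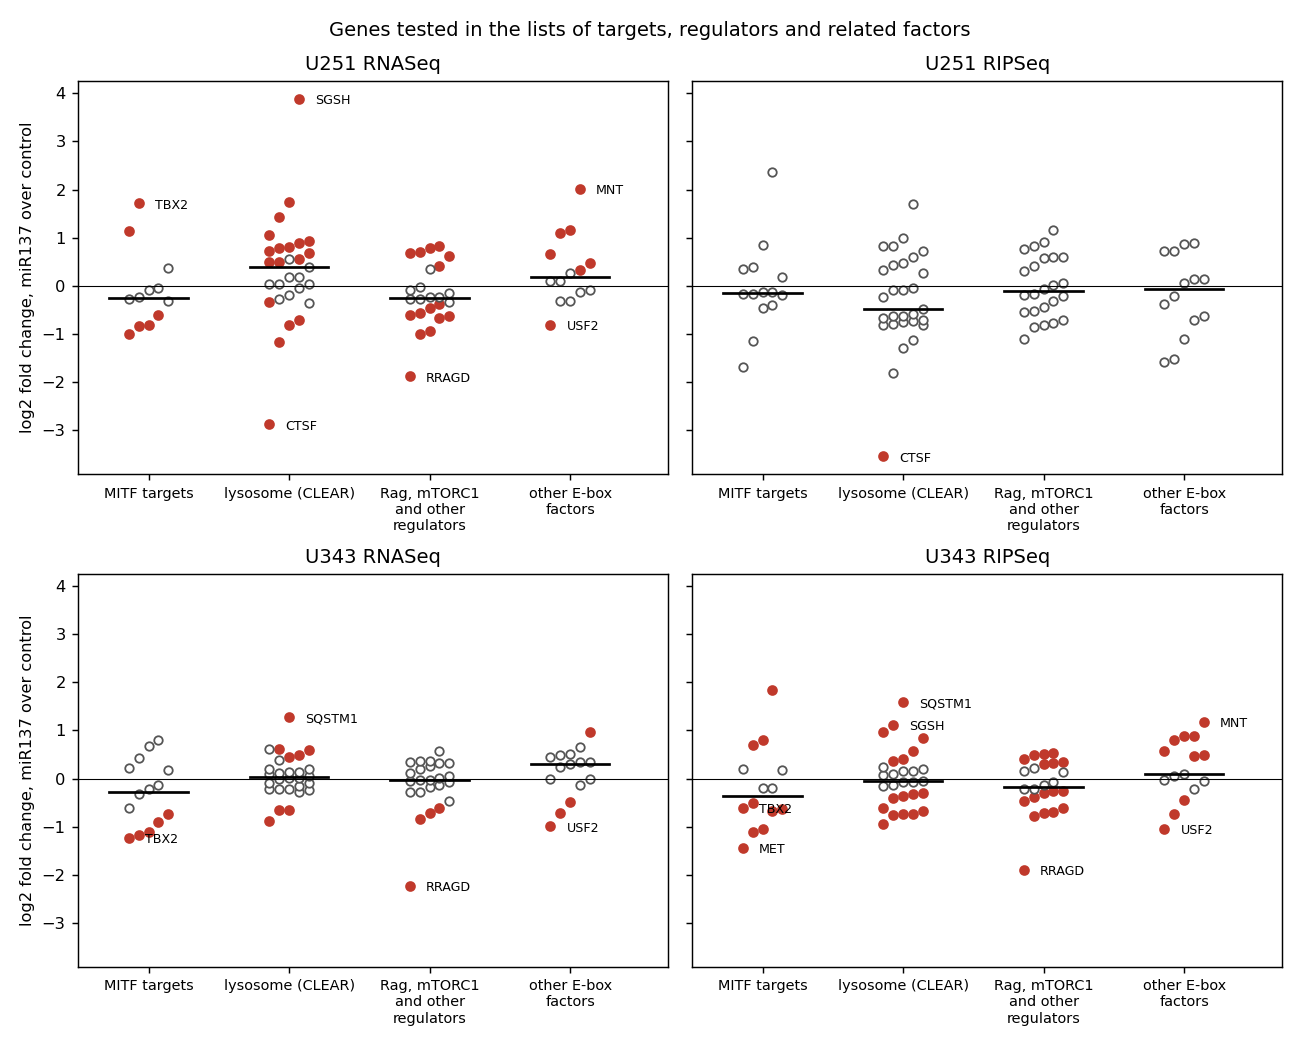
Log2 fold change, miR137 over control, of each tested gene (points) in the lists of MITF targets outside pigment cells, CLEAR network genes, regulators of the factors and other E-box factors, 1 panel per experiment. Red points passed an adjusted p of 0.05, open points did not, and black bars are medians; RRAGD lies lowest among the regulators at -1.88, -2.23 and -1.89 in U251 RNASeq and both U343 experiments, and CTSF is the single red point in U251 RIPSeq.

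Among 24 regulators that set where TFEB and TFE3 sit in the cell, the Rag GTPase RRAGD had the largest fall in each of the 3 experiments with calls. RRAGD is itself a known target of the MiT/TFE factors and part of the switch that brings mTORC1 to the lysosome. Its reads went from 746 and 953 to 147 and 175 in U251 RNASeq, from 2714 and 2466 to 549 and 570 in U343 RNASeq, and from 2970 and 2550 to 645 and 708 in U343 RIPSeq. The log2 fold changes were -1.88 (SE 0.16, adjusted p = 5.38e-07), -2.23 (SE 0.11, adjusted p = 0.00647) and -1.89 (SE 0.09, adjusted p = 4.46e-06). In U251 RIPSeq RRAGD had 495 and 1252 reads in the controls and 524 and 509 with miR137, with a log2 fold change of -0.77 (SE 0.42, adjusted p = 0.395). The difference between the lines in RNASeq was -0.35 (SE 0.20, adjusted p = 0.233).

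The partner GTPase RRAGA rose by 0.52 in U343 RIPSeq (SE 0.09, adjusted p = 0.0015), and FNIP2, a partner of folliculin, by 0.82 in U251 RNASeq (SE 0.16, adjusted p = 0.000527). FNIP2 shares 13271 bases with C4orf45 in the table. Between the lines, U343 minus U251, FNIP2 differed by -1.01 in RNASeq (SE 0.25, adjusted p = 0.021). In RIPSeq the value was -0.80 (SE 0.39, adjusted p = 0.294). Of the 24 regulators, 9 fell and 6 rose in U251 RNASeq, median -0.25, 4 fell and 0 rose in U343 RNASeq, median -0.03, and 10 fell and 7 rose in U343 RIPSeq, median -0.17. The medians over all genes tested were 0.02, 0.02 and 0.0049. Of all genes, 29% fell and 28.7% rose, 11.7% fell and 8.31% rose, and 27.8% fell and 28.5% rose in these experiments. The list had 0 of 24 past the threshold in U251 RIPSeq, median -0.11. In U343 RIPSeq fewer regulators fell and fewer rose in every fit without 1 library.

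Signals and factors known to act on MITF were also counted. In U251 RNASeq 4 of 12 fell and 5 rose, median 0.31, where 29% of all genes fell and 28.7% rose. The median was 0.38 in U251 RIPSeq, where 0 of 13 passed. KIT, the receptor through which stem cell factor acts on MITF, fell by 3.76 in U251 RNASeq (SE 0.33, adjusted p = 7.83e-07). Its reads there went from 129 and 107 to 7 and 5. The difference of KIT between the U251 assays, RIPSeq minus RNASeq, was 2.79 (SE 0.57, adjusted p = 0.0943). ZEB2, a zinc finger repressor, rose by 1.40 in U251 RNASeq (SE 0.13, adjusted p = 1.26e-06). KIT had 1 to 8 reads in the U343 libraries. In U343 RNASeq 1 of 12 passed, the KIT ligand KITLG, which fell by 0.57 (SE 0.13, adjusted p = 0.0465), where 20% of all genes were called. In U343 RIPSeq 3 of 12 fell and 3 rose, where 27.8% of all genes fell and 28.5% rose, and the endothelin receptor EDNRB fell by 1.77 (SE 0.28, adjusted p = 0.00129), from 53 and 63 reads to 14 and 17.

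Of the 16 other E-box factors of this structural class, the MITF relatives outside the family, 6 of 14 tested rose and 1 fell in U251 RNASeq, 1 of 15 rose and 3 fell in U343 RNASeq, and 7 of 15 rose and 3 fell in U343 RIPSeq. Of all genes 28.7% rose and 29% fell, 8.31% rose and 11.7% fell, and 28.5% rose and 27.8% fell in these experiments. The medians of the list were 0.18, 0.31 and 0.09, and in U251 RIPSeq, where 0 of 14 passed, -0.07. USF2 had the largest fall of the list in all 3, at -0.80 (SE 0.15, adjusted p = 0.000417), -0.99 (SE 0.11, adjusted p = 0.0117) and -1.05 (SE 0.08, adjusted p = 4.47e-05). MNT, a MAX partner that opposes MYC, rose by 2.02 in U251 RNASeq (SE 0.21, adjusted p = 3.92e-06) and by 1.17 in U343 RIPSeq (SE 0.14, adjusted p = 0.000272). MXI1, another MYC antagonist, rose by 0.97 in U343 RNASeq (SE 0.13, adjusted p = 0.0148). Between the lines in RNASeq, U343 minus U251, MNT differed by -1.36 (SE 0.34, adjusted p = 0.0217) and MXI1 by 0.86 (SE 0.24, adjusted p = 0.0335). In RIPSeq the values were 0.51 (SE 0.34, adjusted p = 0.446) and 0.06 (SE 0.41, adjusted p = 0.96).

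Targets of miR-137 known from earlier work, 11 beside MITF, were counted alongside it. In U251 RNASeq 10 fell and 1 rose, median -1.03, in U343 RNASeq 6 fell and 1 rose, median -0.66, and in U343 RIPSeq 7 fell and 1 rose, median -0.78, while 29%, 11.7% and 27.8% of all genes fell. In U251 RIPSeq 0 of 11 passed, with 7 lower and 0 higher at an unadjusted p under 0.05 and a median of -1.31. CDK6, a kinase of the G1 phase, fell by 3.53 in U251 RNASeq (SE 0.17, adjusted p = 1.62e-09). In U343 it fell by 2.78 in RNASeq (SE 0.14, adjusted p = 0.00647) and by 3.20 in RIPSeq (SE 0.12, adjusted p = 1.71e-06). The difference of CDK6 between the U251 assays, RIPSeq minus RNASeq, was -0.03 (SE 0.57, adjusted p = 0.983). In U251 RIPSeq the lowest fold change of the list was -3.53, and MITF was at -0.10. MITF, at -3.10 and -3.61, lay below CDK6 in both U343 experiments and, at -0.87, above it in U251 RNASeq, but these differences between genes were not tested. PTGS2, the inducible cyclooxygenase, rose by 2.48 in U251 RNASeq (SE 0.24, adjusted p = 1.57e-06) and by 3.78 in U343 RIPSeq (SE 0.31, adjusted p = 4.76e-05). The RNA-binding protein MSI1 rose by 0.66 in U343 RNASeq (SE 0.12, adjusted p = 0.03). In U251 RNASeq MSI1 was among the 10 that fell. The difference of MSI1 between the lines, U343 minus U251, was 1.499 in RNASeq (SE 0.329, adjusted p = 0.0134). In RIPSeq it was 2.647 (SE 0.398, adjusted p = 0.0231). The row of the MIR137 gene itself held 0 to 5 reads in every library, with either mimic, and so gives no check of the transfection.

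In U251 RIPSeq, 1 of the 122 entries of the 9 lists tested passed by edgeR, CTSF, and 40 had an unadjusted p under 0.05. Of all 14087 genes 1.21% passed and 2828 had an unadjusted p under 0.05. Without control replicate 1, 13 CLEAR genes fell and 12 rose, in a fit that called 5052 of all genes as lower and 4689 as higher. Without control replicate 2, 16 fell and 12 rose, and 5366 and 6304 of all genes were called. In U343 RNASeq 0 list genes passed without either control. Other cell markers moved with the mimic as well. Of the astroglial markers 6 of 8 tested fell and 0 rose in U251 RNASeq, 0 fell and 2 rose of 9 in U343 RNASeq, and 2 fell and 3 rose of 9 in U343 RIPSeq, where 29%, 11.7% and 27.8% of all genes fell and 28.7%, 8.31% and 28.5% rose. The astroglial median in U251 RIPSeq was -0.88, with 0 of 9 past the threshold. GFAP, the astrocyte filament, fell by 3.18 in U251 RNASeq (SE 0.18, adjusted p = 1.33e-08). NES, a filament of neural progenitors, rose by 1.58 in U343 RNASeq (SE 0.12, adjusted p = 0.00711). In U343 RIPSeq the water channel AQP4 fell by 1.22 (SE 0.13, adjusted p = 0.000174), with 445 bases shared with C18orf16. The glutamate transporter SLC1A3 rose there by 2.68 (SE 0.36, adjusted p = 0.00056), from 6 and 13 reads to 61 and 52. Of the macrophage markers 2 of 2 tested rose in U251 RNASeq, CD14 by 1.84 (SE 0.61, adjusted p = 0.02), from 10 and 1 reads to 15 and 13. In U343 RIPSeq 1 of 3 tested fell, ITGAM by 1.70 (SE 0.55, adjusted p = 0.0314), from 13 and 23 reads to 7 and 3. The summed level of the macrophage markers was at most 4.78 CPM with miR137 and that of the melanocyte markers at most 26.1 CPM. Their part in the changes of MITF, TFEB and TFE3 was not tested.

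The genes with the most similar pattern were found by Pearson's correlation of log2 CPM over the 16 libraries, among 12527 genes with at least 50 reads on average. For MITF these were KIF4A (r = 0.956), BUB1B (r = 0.95) and NUF2 (r = 0.948), a mitotic kinesin, a spindle checkpoint kinase and a kinetochore protein. With the mimic, KIF4A fell by 1.40 in U343 RNASeq (SE 0.09, adjusted p = 0.00647), by 1.58 in U343 RIPSeq (SE 0.08, adjusted p = 6.51e-06) and by 0.37 in U251 RNASeq (SE 0.13, adjusted p = 0.0223). BUB1B shares 3709 bases with PAK6 in the table. For TFEB they were CIDECP, TMEM231 and SLC9A8 (r = 0.982 for each), and for TFE3 they were TOLLIP (r = 0.996), IGDCC4 (r = 0.989) and ORAI3 (r = 0.984). TOLLIP, an adaptor of endosomal sorting, rose by 0.77 in U251 RNASeq (SE 0.17, adjusted p = 0.00136), by 0.68 in U343 RNASeq (SE 0.14, adjusted p = 0.0404) and by 0.82 in U343 RIPSeq (SE 0.10, adjusted p = 0.000385). In U251 RIPSeq neither KIF4A (-0.74, SE 0.24, adjusted p = 0.199) nor TOLLIP (-0.04, SE 0.33, adjusted p = 0.967) passed. These correlations are descriptions: the points share lines, library chemistry and treatment, and much of the range of TFEB and TFE3 is the step between U251 and U343. The genes were picked on these same libraries, so their changes with the mimic are descriptions as well.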

How the data were processed

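Per the labels and the methods of the study, reads of rRNA-depleted libraries were aligned by the authors to hg18 with RMAP and counted on 1 merged RefSeq transcript per gene. The handling of reads that map to several places is not given in the sources used here. The deposited values are raw read counts per gene for each of the 16 libraries, and no other per-sample value was used. A second row of 1 duplicated symbol in the U251 tables was left out.

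Here edgeR 4.0.16 (R 4.3.3) was run on the counts, with TMM scaling, its default filter on low counts, the quasi-likelihood F test (two-sided), Benjamini-Hochberg adjustment over all genes tested and a threshold of 0.05. The 4 libraries of an experiment were fitted alone. Differences between lines or assays were interaction terms over 8 libraries. CPM are scaled by TMM within an experiment. The pairwise Fisher criterion of the study, which keeps falls only, was recomputed over all genes and mirrored here for rises. DESeq2 1.42.0, upper-quartile scaling, other filters, a joint fit, a replicate block and leaving out each library were alternatives. Fits without 1 library assume that a lone library varies like the others.

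The 4 members and the 9 gene lists were chosen with earlier results of these data known. From each list and experiment, the gene with the largest fall and that with the largest rise past the threshold, moving the same way in all 4 pairs, was named, and the 3 genes most correlated with each member at 10 or more mean reads. List genes NEU1 and AIF1, and CDKN1A, CDKN2A and TCF7L2 in U251, were not analysed here. Not every gene that this rule names is reported here.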

Additional observations from a re-analysis of the deposited data

Results flagged for a closer look

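The effect of the mimic on 2 members differed between the cell lines by a test of the difference itself (edgeR interaction term, fold change in U343 minus that in U251). For MITF the log2 difference was -2.24 in RNASeq (adjusted p = 0.00123), where MITF was lower with miR137 in all 4 library pairs of both lines, and -3.46 in RIPSeq (adjusted p = 0.0177), where it was lower in 4 of 4 pairs in U343 and in 2 of 4 in U251. For TFEB the log2 difference was -1.48 in RNASeq (adjusted p = 0.0256), with TFEB higher in 4 of 4 pairs in U251 and in 2 of 4 in U343. The lines also differ in library chemistry, and both cannot be told apart.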

How the results depend on the processing

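The 33 fold changes and differences of MITF, TFEB and TFE3 were recomputed under 335 alternatives in all, of which 284 kept the direction and the side of the threshold, 21 lost the call, 17 gained one and 13 changed sign. The fall of MITF and the rise of TFE3 in U343 RIPSeq, and the rise of TFEB in U251 RNASeq, kept their call in every alternative that could be fitted. The joint fit of 8 libraries moved the number of genes called from 7529 to 2951 in U251 RNASeq, where MITF (-0.86, adjusted p = 0.0682) and TFE3 (0.77, adjusted p = 0.0864) lost their calls, from 170 to 2355 in U251 RIPSeq, where TFEB gained one (1.23), and from 3018 to 5033 in U343 RNASeq. U251 RIPSeq called 1123 genes by DESeq2 and 59 without a filter, and TFE3 changed sign there with upper-quartile scaling (-0.070) and at a minimum of 50 mean reads (-0.0044). PABP-bound against total RNA in U251 lost MITF without a filter (-1.69) and gained TFE3 by DESeq2 (1.42). The difference of TFEB between lines in RIPSeq passed by DESeq2 (-0.96). The cause was not tested.

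The labels give same-numbered libraries only a number in common and do not say whether they were prepared together. Over genes, their deviations correlated at 0.07 in U251 RNASeq and -0.11 in U251 RIPSeq. In U343 the values were 0.12 in RNASeq and 0.43 in RIPSeq, with 2 pairs in each experiment. Whether the libraries are paired is therefore not known. The replicate block moved U251 RIPSeq to 802 genes, brought TFEB in U343 RIPSeq (0.25) and TFE3 in PABP-bound against total RNA of U251 (1.34) past the threshold, and changed no other call of a member.

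Without each library in turn, with 1 residual degree of freedom in the 4-library fits, the genes called ranged from 141 to 11670 in U251 RIPSeq and from 0 to 6146 in U343 RNASeq. The lowest and highest log2 values were -0.50 to 0.54 for MITF, 1.15 to 1.49 for TFEB and -0.20 to 0.46 for TFE3 in U251 RIPSeq, and -3.33 to -2.92, -0.14 to 0.26 and 0.75 to 0.91 in U343 RNASeq. For the effect by assay they were 0.44 to 1.36, -0.58 to 0.11 and -1.02 to -0.23 in U251 and, for TFEB and TFE3, -0.04 to 0.39 and -0.12 to 0.12 in U343. The values at which a sign turned were 0.05 and 0.11 for TFEB in U251, and -0.038 for TFEB and 0.07, 0.12 and 0.02 for TFE3 in U343, none of them called. For the effect by line they were -4.05 to -3.08 for MITF, -1.21 to -0.79 for TFEB and 0.39 to 1.13 for TFE3 in RIPSeq, and -1.82 to -1.09 for TFEB and -0.02 to 0.19 for TFE3 in RNASeq, where TFE3 was -0.025 and -0.0067 without U251 control replicate 1 and U343 miR137 replicate 1. For PABP-bound against total RNA they were -2.15 to -1.19 for MITF, 0.28 to 0.94 for TFEB and 0.92 to 1.66 for TFE3 in U251, and -0.64 to -0.41 for MITF and 0.29 to 0.54 for TFE3 in U343. Across all alternatives the genes called ranged from 0 to 8869 for the effect by assay in U251 (19 as reported), 0 to 3113 in U343 (1), 100 to 11168 for PABP-bound against total RNA in U251 (1855), 1877 to 5676 for the effect by line in RNASeq (3922) and 2 to 9113 in RIPSeq (524).

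Of the pairwise criterion, TFEB was called higher (1) in U251 RNASeq at an adjusted p under 0.05 and with 3 of 4 pairs, and in U251 RIPSeq with an odds ratio over 1.5, with 3 of 4 pairs and with scaled totals. TFE3 was called higher (1) at an odds ratio over 1.5 in U251 RNASeq, U343 RNASeq and U343 RIPSeq. With an odds ratio over 1.5 it called 1024 and 2372 genes as lower and higher in U251 RNASeq (448 and 1248 as reported), 745 and 1370 in U251 RIPSeq (302 and 704), 1321 and 732 in U343 RNASeq (595 and 311), and 1677 and 1760 in U343 RIPSeq (702 and 997). Scaled totals made this 793 and 793 in U251 RNASeq, and 3 of 4 pairs gave 477 higher in U343 RNASeq. Without 1 library it was also 1 for TFEB in both U251 experiments and for TFE3 in U251 RNASeq, the lowest being 0, and MITF kept its calls in U343. Leaving out 1 library gave up to 1372 and 2299 genes in U251 RIPSeq, 1940 higher in U251 RNASeq and 914 higher in U343 RNASeq. Depth limits TFEC throughout and TFEB in U251 RNASeq, at 20 to 62 reads.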
